A study of Homo sapiens with 2 samples.

Results

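Cells store iron inside a shell built from ferritin light chain (FTL) and ferritin heavy chain (FTH1), take it up through the transferrin receptor (TFRC), and let it out through ferroportin (SLC40A1). These genes were examined together with the endosomal iron transporter SLC11A2, the iron regulatory proteins ACO1 and IREB2, the ferritin autophagy receptor NCOA4, the heme-degrading enzyme HMOX1 and the iron-sensing ligase subunit FBXL5. The 10 genes were chosen by symbol for their roles in iron storage and uptake, with earlier results of these data known. Each matched 1 of the 31798 rows, or 28615 symbols, of the deposited table. Of the 10, 8 reached a mean of at least 1 FPKM (fragments scaled to transcript length and library size) over both libraries, as did 10143 symbols in all, and these are called expressed here. SLC40A1 and IREB2 did not.

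Iron balance in a cell is set largely after transcription. When iron is scarce, iron regulatory proteins bind a hairpin called the iron-responsive element (IRE) in certain mRNAs. Binding in the 5′ untranslated region (UTR), as in both ferritin mRNAs and ferroportin, blocks translation, whereas binding in the 3′ UTR of the TFRC mRNA protects it from decay. Ferritin transcription also responds to oxidative and inflammatory signals, and ferritin is broken down by autophagy through NCOA4.

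The libraries came from HCT116, a human cell line long established from a colorectal cancer, with 1 library labelled as SRD5A1 knockdown (title tag "Dox") and 1 labelled as control (title tag "KD"). SRD5A1 encodes a steroid 5-alpha-reductase. The labels do not explain the tags or say how the knockdown was made, and name no culture time, clone or shared treatment. With 1 library per group there was no replicate check, no p-value was computed, and every interval below covers counting error only, treating each read as an independent molecule although no molecular identifiers were used. In a bulk library, fewer expressing cells and less RNA per cell cannot be told apart.

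The libraries held 54740670 counts (knockdown) and 41814981 counts (control). The targeted gene, SRD5A1, stood at 6.25 FPKM in the knockdown library and 10.8 FPKM in the control, a ratio in CPM (each count divided by its library sum and scaled) of 0.581 (95% exact interval 0.554 to 0.609). Mitochondrially encoded genes took 12.8% of counts in the knockdown library and 18.3% in the control. Differences below are in log2(FPKM + 1), knockdown minus control, a scale that understates the change of low genes, and their median over the expressed genes was 0.30. Setting the median ratio between libraries to 1 lowers differences of well-expressed genes by 0.38. Of the epithelial markers, 8 of 8 were expressed, with a summed level of 1682 FPKM in the knockdown library and 1149 FPKM in the control. The keratins carried that sum (KRT18 at 346 and 74.5 FPKM), and EPCAM (30.2 and 39.7 FPKM), CLDN7 (62.4 and 111 FPKM) and ELF3 (18.1 and 22.7 FPKM) were lower in the knockdown library. Of the markers of other cells, 1 of 6 fibroblast genes, 1 of 6 immune genes, 0 of 4 endothelial genes, 0 of 2 adipocyte genes in the table and 2 of 4 erythroid genes in the table were expressed.

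The IRE hairpins were read from GENCODE 29 transcripts on GRCh38 and are shown because the uptake and storage mRNAs carry them at opposite ends. The search on the sense strand was for CNNNNNCAGTG, in which the unpaired C precedes 5 stem bases and the loop CAGTGN, followed by 5 bases that pair with the stem (G·T pairs allowed). Of genes with an annotated 5′ UTR, 36 of 18794 (0.192%) held the full pattern there, and 132 of 19091 (0.691%) held it in the 3′ UTR. Capitals mark the loop, and all are written 5′ to 3′. The ferritin and ferroportin matches lie in the 5′ UTR, at chr19:48965333-48965362 (+) for FTL, chr11:61967575-61967604 (−) for FTH1 and chr2:189580662-189580691 (−) for SLC40A1.
FTL: gtctcttgcttcaaCAGTGTttggacggaa
FTH1: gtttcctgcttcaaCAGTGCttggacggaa
SLC40A1: tccaacttcagctaCAGTGTtagctaagtt

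The FTL and FTH1 matches were identical at 27 of 30 bases and differed at C3T, T6C and T20C, with the FTL base first and positions counted from the 5′ end of the printed stretch. Of the listed coding transcripts, 1 of 1 for FTL, 2 of 3 for FTH1 and 1 of 2 for SLC40A1 held the match. The third difference is the last base of the loop. In the 3′ UTR of TFRC the full pattern occurred 4 times in 3 of 4 listed coding transcripts, and TFRC was the 1 gene of 19091 (0.00524%) with 4 or more. These lie on the minus strand of chromosome 3, in transcript order at chr3:196050980-196051009, chr3:196050576-196050605, chr3:196050511-196050540 and chr3:196050464-196050493.
TFRC site 1: ataattatcggaagCAGTGCcttccataat
TFRC site 2: cacattatcgggagCAGTGTcttccataat
TFRC site 3: gtctgtatcggagaCAGTGAtctccatatg
TFRC site 4: gtaattatcgggaaCAGTGTttcccataat

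The SLC11A2 3′ UTR held a match with 4 of 5 stem pairs, at chr12:50988270-50988299 (−), in 4 of 15 listed coding transcripts. A match of that looser kind or better was present in the 3′ UTR of 907 of 19091 genes (4.75%), and ACO1 and IREB2 also had one. A match describes the letters only and was not tested for binding.
SLC11A2: gtagccatcagagcCAGTGTgtttctatgg

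Among the storage genes, the light chain was much lower in the knockdown library while the heavy chain was somewhat higher. FTL (ENSG00000087086, chr19:48965309-48966879, +), which helps form the mineral core of ferritin, stood at 2444 FPKM in the knockdown library and 9481 FPKM in the control. Its counts were 139045 and 412040, a CPM ratio of 0.258 (0.256 to 0.259), or 3.88-fold lower, and its difference was -1.96. FTL ranked 9 among all symbols by FPKM in the control and 20 in the knockdown library, and 164 of the 10143 expressed genes (1.62%) had a lower difference.

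FTH1 (ENSG00000167996, chr11:61959718-61967634, −), whose ferroxidase site oxidises iron for storage, stood at 1216 FPKM in the knockdown library and 834 FPKM in the control. Its counts were 159253 and 83415, a CPM ratio of 1.46 (1.45 to 1.47), with a difference of 0.54. That difference was 0.16 under the median ratio scaling and 0.09 after subtracting the median of genes of similar length. FTH1 overlaps BEST1, a chloride channel gene on the opposite strand that stood at 14.3 FPKM in the knockdown library and 8.80 FPKM in the control, and whether counting used strand is not stated in the labels.

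The balance of the ferritin chains is a ratio within each library and so does not depend on library scaling. FTL exceeded FTH1 in FPKM by 2.01 times in the knockdown library and by 11.4 times in the control. The ratio was thus 0.177 times the control's (0.175 to 0.179), or 5.66-fold lower. Both chains summed to 3660 FPKM in the knockdown library and 10315 FPKM in the control, and the CPM ratio of their summed counts was 0.460 (0.458 to 0.462). The light chain made up 66.8% of the summed FPKM in the knockdown library and 91.9% in the control. The level of this ratio depends on how length is treated. Per kilobase of the principal transcript it was 1.22 in the knockdown library and 6.91 in the control, and in raw counts, not scaled to length, it was 0.873 and 4.94, so by counts FTL was below FTH1 in the knockdown library. The length the authors' FPKM divides by was 2.30 times as long for FTH1 as for FTL, which enters the level of the ratio but not its change. A shift between the libraries that goes with length would still enter the change.

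Short and abundant transcripts differed from other genes between these libraries. FTL fell in the shortest decile of expressed genes by length, whose median difference was -0.20, and FTH1 in the third decile, with a median of 0.46. Both were in the most abundant decile, with a median of 0.05. Of the 52 genes at 1000 FPKM or more in either library, 10 were 2-fold lower and 7 were 2-fold higher, with a median of -0.28. Of all expressed genes, 6.83% were 2-fold lower and 20.9% were 2-fold higher. With the median of its length decile subtracted, FTL was still at -1.75 and FTH1 was at 0.09, against -1.96 and 0.54 as deposited. The gap between the chains, and so the change of their ratio, was smaller on that basis. The part of length in the FTL value and in the ratio, and that of the mitochondrial share in the FTL value, was not tested.

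Processed ferritin pseudogenes, near-identical copies that can share reads with their parents, held few counts. The 16 FTH1 pseudogene rows summed to 2909 counts in the knockdown library and 1845 in the control, 1.83% and 2.21% of the counts of FTH1. The 4 FTL pseudogene rows summed to 128 and 390 counts, 0.0921% and 0.0947% of those of FTL. Their summed CPM ratios were 1.20 (1.14 to 1.28) for FTH1 copies and 0.251 (0.204 to 0.307) for FTL copies. As deposited, each was on the same side of 1 as the parent. The median ratio scaling multiplies knockdown values by 0.769, which takes the ratio of the FTH1 copies below 1. Because copies can share reads with their parents, they are not an independent check. Of the 8 FTH1 pseudogene rows with at least 100 counts over both libraries, 7 had a CPM ratio above 1 and 1 below it, from 0.866 to 1.80, and FTLP3, the 1 such FTL row, had 0.272 (0.216 to 0.341). FTH1P2 had 1.36 (1.21 to 1.52), FTH1P8 had 1.38 (1.21 to 1.57) and FTH1P5 had 1.80 (1.27 to 2.58). The intervals of FTH1P7, FTH1P10, FTH1P11, FTH1P20 and FTH1P23 spanned 1. Rows below that cut went both ways, as with FTH1P3 at 0.614 (0.388 to 0.968) and FTH1P12, with 12 and 1 counts, at 9.17.

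**Figure D1:**
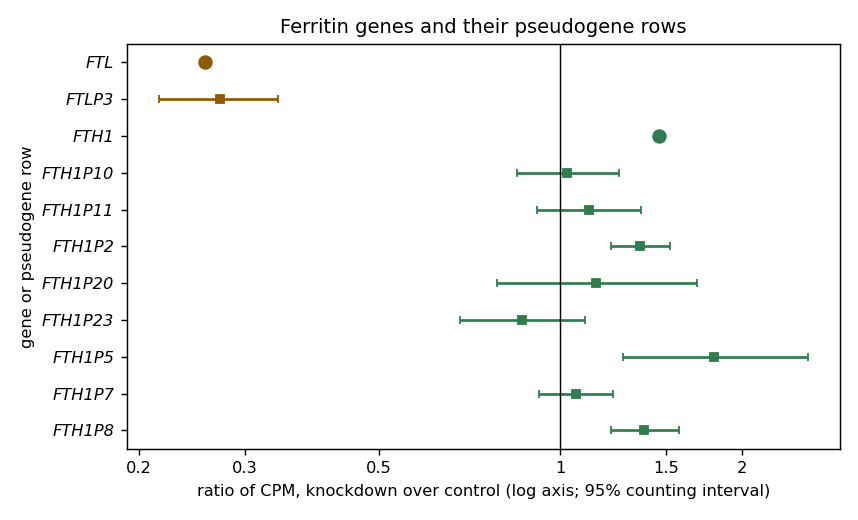
CPM ratio, knockdown over control, on a log axis for FTL and FTH1 (circles) and for their pseudogene rows with at least 100 counts over both libraries (squares), with 95% counting intervals, which are narrower than the markers for the parent genes. FTL and FTLP3 lie well below 1, at 0.258 and 0.272, while FTH1 lies at 1.46 and its pseudogene rows run from 0.866 to 1.80.

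NCOA4 (ENSG00000266412, chr10:46005088-46030714, −), the receptor that carries ferritin to the autophagosome, was level between the libraries as deposited, at 11.4 FPKM in both. Its counts were 3039 and 2321, a CPM ratio of 1.0002 (0.947 to 1.06). Under the other library scalings its difference was negative, down to -0.36, so its direction depends on the scaling.

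Among the uptake and export genes, TFRC was lower and SLC11A2 higher in the knockdown library. TFRC (ENSG00000072274, chr3:196027183-196082096, −), which brings transferrin-bound iron into the cell, stood at 6.12 FPKM in the knockdown library and 14.2 FPKM in the control. Its counts were 3121 and 5517, a CPM ratio of 0.432 (0.413 to 0.452), or 2.31-fold lower, and its difference was -1.09. Of the expressed genes, 6.05% had a lower difference. A pseudocount of 5 gave -0.79, which is short of 2-fold. AC024937.1 and RNU7-18P overlap TFRC.

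SLC11A2 (ENSG00000110911, chr12:50979401-51028566, −), which moves ferrous iron out of the endosome, stood at 3.13 FPKM in the knockdown library and 1.47 FPKM in the control. Its counts were 2083 and 756, a CPM ratio of 2.10 (1.94 to 2.29), and its difference of 0.74 reached 2-fold with a pseudocount of 0.1 (1.04) or as CPM. RNU6-87P overlaps SLC11A2. SLC40A1 (ENSG00000138449, chr2:189560579-189583758, −), the iron exporter, was near the limit of detection, at 0.0793 FPKM (23 counts) in the knockdown library and 0.181 FPKM (40 counts) in the control. Its CPM ratio was 0.439 (0.251 to 0.752).

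Set against the heavy chain, TFRC was 3.37-fold lower in the knockdown library (ratio change 0.296, 0.283 to 0.310), whereas set against the light chain it was 1.68 times higher (1.60 to 1.75). The ratio of SLC40A1 to TFRC changed by 1.02 times (0.607 to 1.70), an interval that spans no change. The direction of the receptor relative to ferritin was thus opposite for the light and heavy chains.

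The iron sensors were low or differed little. ACO1 (ENSG00000122729, chr9:32384603-32450836, +), which is cytosolic aconitase when it holds an iron-sulfur cluster and binds IREs when it does not, stood at 5.63 FPKM in the knockdown library and 5.12 FPKM in the control. Its CPM ratio was 1.10 (1.04 to 1.17) and its difference of 0.11 turned negative in 5 of 10 alternatives. Some of the 10, such as other pseudocounts, could not turn a sign. IREB2 (ENSG00000136381, chr15:78437431-78498209, +), the IRE-binding protein degraded when iron is plentiful, stood at 0.371 FPKM (264 counts) in the knockdown library and 0.223 FPKM (123 counts) in the control, a CPM ratio of 1.64 (1.32 to 2.05). The antisense gene AC027228.1 overlaps IREB2.

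FBXL5 (ENSG00000118564, chr4:15604539-15681619, −), the iron-binding adaptor that marks IREB2 protein for degradation, stood at 1.92 FPKM in the knockdown library and 1.03 FPKM in the control. Its counts were 577 and 237, a CPM ratio of 1.86 (1.60 to 2.17), and its difference was 0.52. FAM200B overlaps FBXL5 and held 185 counts in the knockdown library and 162 in the control. ACO1 exceeded IREB2 in FPKM by 15.2 times in the knockdown library and 22.9 times in the control.

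HMOX1 (ENSG00000100292, chr22:35380361-35390293, +), which frees iron from heme, was higher in the knockdown library, at 31.5 FPKM against 18.1 FPKM in the control. Its counts were 4737 and 2083, a CPM ratio of 1.74 (1.65 to 1.83), and its difference was 0.77, or 0.38 with the upper quartile set equal.

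**Figure D2:**
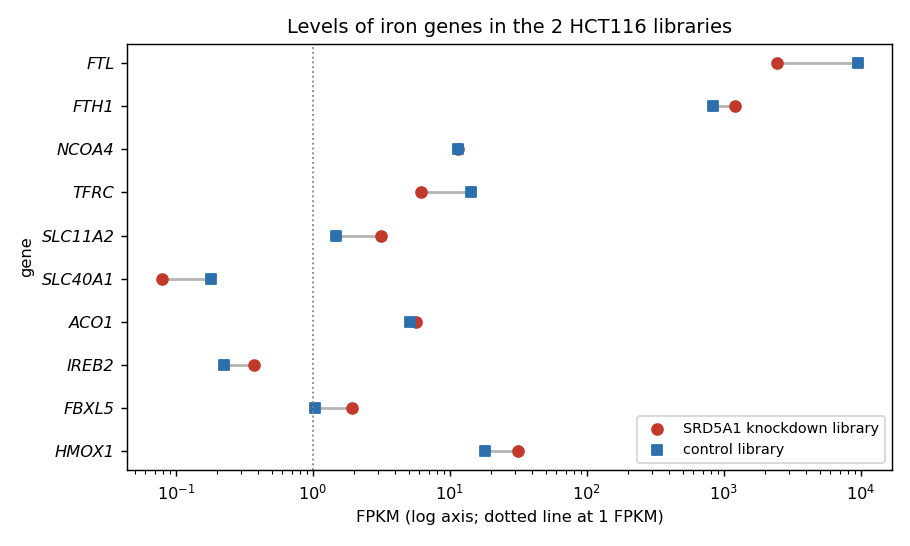
FPKM of the 10 iron genes in the knockdown and control libraries on a log axis, 1 library each. FTL and FTH1 lie far above the other genes in both libraries, and SLC40A1 and IREB2 lie below 1 FPKM in both.

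Of the 8 expressed genes, 2 (FTL and TFRC) were 2-fold lower in the knockdown library, where 6.83% of expressed genes were, and 0 were 2-fold higher, where 20.9% were. Either way, 2 of 8 were 2-fold apart against 27.7% of expressed genes. At a difference of 0.5, 4 were higher (FTH1, SLC11A2, HMOX1 and FBXL5) against 40.8% of expressed genes, and 2 were lower against 16.3%. With the median ratio set to 1, 0 passed 0.5 upward and 2 downward, where 27.2% and 26.1% of expressed genes did. Of all expressed genes 2-fold apart, 75.3% were higher as deposited, 60.9% with TMM and 52.9% with the median ratio set to 1. The median of the 8 was 0.32, close to the 0.30 of all expressed genes.

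**Figure D3:**
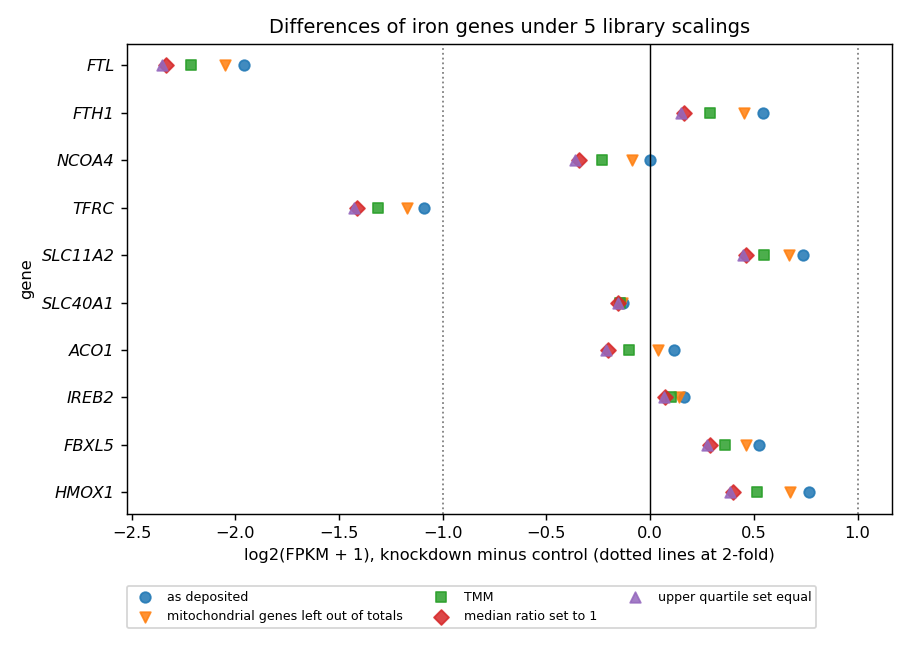
Difference in log2(FPKM + 1), knockdown minus control, of each iron gene under 5 library scalings (marker shapes), with dotted lines at 2-fold. FTL and TFRC lie beyond 2-fold lower in all 5, from -2.35 to -1.96 and from -1.43 to -1.09, while ACO1 and NCOA4 cross 0.

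Likeness was taken as the distance in log2(FPKM + 1) over the 2 libraries among 8714 expressed protein-coding genes, so it rests on 2 values per gene. Nearest to FTL were MT-ND5 (2654 FPKM in the knockdown library and 7400 FPKM in the control), MT-ND6 and TMSB10. Nearest to FTH1 were S100A6 (1233 and 812 FPKM), UBB and PRDX5, and nearest to TFRC were RASSF1 (5.89 and 15.4 FPKM), TUBB2B and TMEM206.

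Of the wider iron uptake and intracellular transport list, 15 of 23 genes in the table were expressed, with 8 higher and 2 lower by 0.5 and a median of 0.56. As for the lists that follow, these counts stand beside 40.8% of all expressed genes higher and 16.3% lower as deposited, and 27.2% and 26.1% with the median ratio set to 1. Under that scaling 5 of the 15 passed 0.5 upward and 3 downward, and the list median was 0.26. STEAP3, an endosomal ferrireductase, stood at 7.91 FPKM in the knockdown library and 3.16 FPKM in the control, and MELTF, melanotransferrin, at 13.9 and 6.04 FPKM. SLC22A17, a lipocalin receptor, went the other way, at 3.88 against 12.8 FPKM. Of the export and systemic control list, 4 of 11 genes were expressed, with 0 higher and 1 lower (BMP6, named after its values were seen, at 1.28 against 3.19 FPKM). NEO1, a receptor that binds hemojuvelin, differed by 0.39.

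Of the mitochondrial iron-sulfur cluster assembly genes, 18 of 19 were expressed, 8 higher (44.4%, near the 40.8% of all expressed genes) and 1 lower, with a median of 0.46. BOLA1, a cluster transfer factor, stood at 8.65 FPKM in the knockdown library and 2.70 FPKM in the control, and the chaperone HSPA9 at 19.2 and 9.24 FPKM. The scaffold ISCU was lower, at 7.12 against 12.5 FPKM. In the cytosol, 12 of 12 were expressed, 6 higher (50.0%) and 0 lower, with a median of 0.50, and CIAPIN1, which passes electrons to cluster assembly, stood at 17.6 FPKM in the knockdown library and 7.56 FPKM in the control. The scaffold NUBP2 differed by 0.80 and the targeting factor MMS19 by 0.66, while the targeting factor CIAO2B went the other way at 54.4 against 72.6 FPKM. With the median ratio set to 1, 6 of 18 mitochondrial genes (33.3%) and 1 of 12 cytosolic genes (8.33%) were higher, against 27.2% of expressed genes, and the medians were 0.15 and 0.18.

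Heme synthesis had the highest median of these lists as deposited, 0.85, with 8 of 12 expressed genes higher (66.7%, against 40.8% of all expressed genes) and 0 lower (against 16.3%). CPOX, which oxidises coproporphyrinogen in mitochondria, stood at 92.5 FPKM in the knockdown library and 20.8 FPKM in the control and UROS at 8.27 and 2.31 FPKM. ALAD, an early enzyme of the pathway, stood at 5.17 against 5.78 FPKM. With the median ratio set to 1, 6 of 12 were higher (50.0%, against 27.2%) and 0 lower, and the median was 0.52, where that of all expressed genes was -0.00.

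Of the heme breakdown, transport and sensing list, 4 of 14 expressed genes were higher (28.6%, against 40.8% of all expressed genes) and 5 lower (35.7%, against 16.3%), with a median of -0.18. With the median ratio set to 1, 2 passed 0.5 upward and 6 downward, and the median was -0.45. TMM gave 2 upward and 6 downward, where 31.2% and 22.5% of expressed genes passed. The small MAF proteins, partners of the heme-responsive repressor BACH1, were lower, MAFF at 4.71 against 60.2 FPKM and MAFG at 5.37 against 26.5 FPKM. KEAP1, the adaptor that marks the antioxidant factor NFE2L2 for degradation, stood at 27.7 FPKM in the knockdown library and 4.77 FPKM in the control. Of the partners of IREB2 and NCOA4 turnover and of mRNA decay, 10 of 12 were expressed, 4 higher and 2 lower, near the shares of all expressed genes, with a median of 0.23 that was -0.13 with the median ratio set to 1. There ZFP36, which promotes decay of AU-rich mRNAs, stood at 23.7 against 70.4 FPKM, its relative ZFP36L1 at 36.49 against 16.97 FPKM, and GABARAPL2, an autophagosome protein, at 14.9 against 26.2 FPKM.

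**Figure D4:**
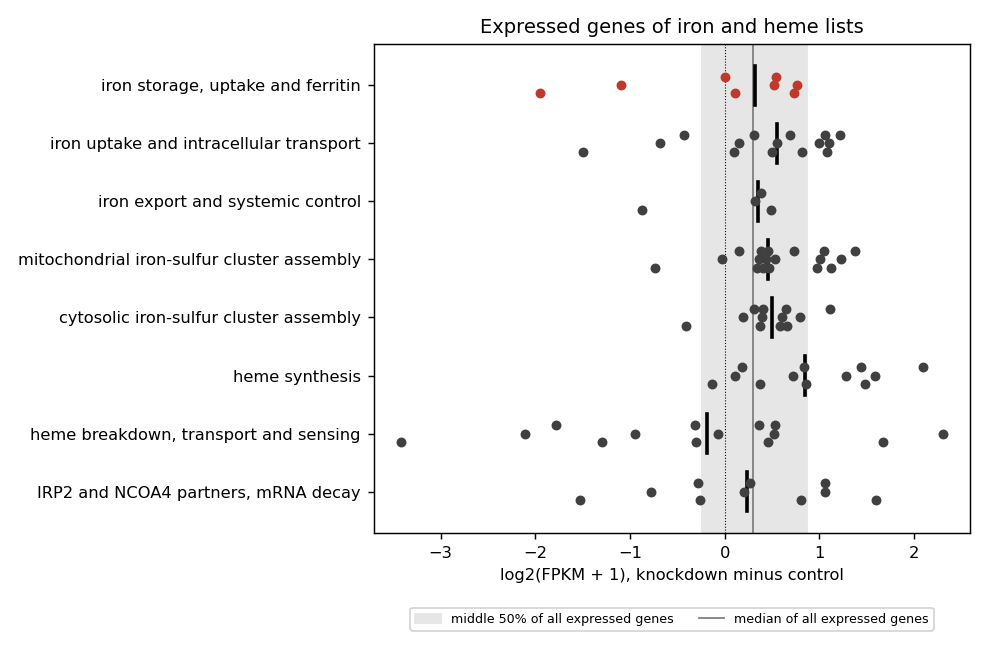
Difference in log2(FPKM + 1), knockdown minus control, of each expressed gene in 8 iron and heme lists (points), with list medians as bars and the iron storage, uptake and ferritin genes in red. The shaded band is the middle 50% of all expressed genes, and heme synthesis has a median of 0.85 against 0.30 for all expressed genes.

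By IRE position, 4 of 6 genes listed with a 5′ IRE were expressed, 1 higher (FTH1) and 1 lower (FTL). Of 4 listed with a 3′ IRE, 2 were expressed, SLC11A2 higher and TFRC lower. Of all expressed genes, 40.8% were higher and 16.3% lower. With the median ratio set to 1, the 5′ list had 0 higher and 2 lower, and the 3′ list 0 higher and 1 lower. Under that scaling 27.2% of all expressed genes were higher and 26.1% lower. FTH1 (0.16) and SLC11A2 (0.46) were then above 0 but short of 0.5. By sign, genes with the element at the same end did not share a direction under either scaling, but the calls at 0.5 depended on the scaling.

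CD68, a macrophage marker, stood at 1.28 FPKM in the knockdown library and 7.79 FPKM in the control, and the 6 immune markers summed to 1.51 and 8.05 FPKM. The leukocyte marker PTPRC was at 0 FPKM in the control. The erythroid markers summed to 1.64 FPKM in the knockdown library and 12.8 FPKM in the control, nearly all from the near-identical HBA1 and HBA2. Their part in the FTL difference was not tested.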

How the data were processed

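Poly(A) RNA extracted with Trizol was read from both fragment ends on an Illumina sequencer, per the labels' protocols. The authors deposited 1 table of FPKM and read counts per gene. The submitters' processing notes name Bowtie 0.12.2, HISAT2 2.0 and StringTie 1.3.0, without roles, and the mouse build mm8, although the identifiers are human; the protocol text also mentions an adipose type. The counting tool and its strand setting were not given in the sources used here. Of 31659 identifiers found in GENCODE 29 (GRCh38), 21912 (69.2%) had the same position, so gene positions are as deposited and hairpin positions are GRCh38.

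From the deposited FPKM, rows were summed by symbol and compared as log2(FPKM + 1), among symbols at a mean of at least 1 FPKM. From the deposited counts, CPM ratios with exact Clopper-Pearson 95% intervals, and ratios between genes with log-scale normal 95% intervals, were computed (Python 3.11.15, pandas 2.3.3, numpy 2.4.6, scipy 1.17.1). A count of 0 allows up to 3 counts, 0.0548 CPM in the knockdown library and 0.0717 CPM in the control. TMM factors came from edgeR 4.0.16 in R 4.3.3. The calculation was tested on simulated counts that held counting error only. That test does not cover variation between cultures or a shift between libraries. Named were all 10 genes, and for FTL, FTH1 and TFRC the 3 nearest genes. In each list the rule named up to 3 expressed genes with the largest difference at a mean of at least 5 FPKM. Where these shared a direction, it added the 1 gene with the largest difference the other way, if any. The genes and lists were chosen with earlier results of these data known. Alternatives were other pseudocounts, scalings, filters, CPM, single rows per symbol, pseudogene reads added, and length or level medians subtracted. Some genes that the rule names are not reported here. No protein sequences were used here.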

Additional observations from a re-analysis of the deposited data

How the results depend on the processing

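FTL, FTH1, TFRC, SLC40A1, SLC11A2, IREB2, HMOX1 and FBXL5 kept their direction in all alternatives run for them, while ACO1 turned in 5 of 10 and NCOA4 in 6 of 10. Not every alternative could turn a direction. Other pseudocounts and single rows per symbol keep the order of the 2 values, and all turns came with library scalings or length or level medians. The length and level medians were not run for SLC40A1 and IREB2. FTL ranged from -2.35 to -1.75 and TFRC from -1.55 to -0.79. The number of iron genes 2-fold higher was 1 with a pseudocount of 0.1 and 1 as CPM (SLC11A2), and the number 2-fold lower, and 2-fold apart, was 1 with a pseudocount of 5. Expressed genes 2-fold apart numbered 2808 of 10143 (27.7%; 2115 higher, 693 lower). They numbered 3807 of 10143 (37.5%; 2800 higher, 1007 lower) with a pseudocount of 0.1 and 1008 (9.94%; 730 and 278) with a pseudocount of 5. As CPM they numbered 4700 of 13749 (34.2%; 3383 and 1317). At a mean of at least 5 FPKM, where fewer genes were tested, they numbered 1481 of 5068 (29.2%; 1136 and 345). The split was 1247 higher and 1109 lower with the median ratio set to 1, 1217 and 1142 with equal upper quartiles, 1205 and 1172 with the length decile's median subtracted, and 1243 and 1200 with the level decile's. The cause was not tested. The share of 2-fold calls that were higher was 75.3% as deposited, 60.9% with TMM and 52.9% with the median ratio. Ratios between iron genes kept their direction as counts, which is no separate check, because the length of each gene cancels in the change. With 23 and 40 counts, SLC40A1 is limited by depth. No paired analysis was possible because each group has 1 library.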
